A study of Homo sapiens with 60 samples.

Results

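The 38 genes described here encode the machinery that copies chromosomal DNA and the enzymes that supply its building blocks. They were chosen by name and found by matching the Ensembl identifiers of the deposited count table to gene symbols. All 38 were found once each among 60675 genes, and all 38 were among the 17129 genes with enough counts to be tested. By role, 10 license replication origins, 6 activate the replicative helicase, 8 are polymerase and primase subunits, and 7 form or load the sliding clamp and join Okazaki fragments. A further 5 make deoxynucleotides, and CLSPN and E2F1 act as regulators.

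A549, an established line from a human lung carcinoma, was treated for 24 h, and its RNA was sequenced in 20 groups of 3 libraries. Controls received the DMSO vehicle, at 0.1% by the sample labels, and a positive control received wortmannin, an inhibitor of PI3-kinase, at 10 µM. Each other group received a hot-water extract of 1 crude drug. CR stands for Coptidis Rhizoma, used at 130, 26 or 5.2 µg/mL, and SR for Scutellariae Radix, used at 230, 46 or 9.2 µg/mL. Doses of 500, 100 or 20 µg/mL were used for the other 4 drugs: the gingers Zingiberis Rhizoma Recens (fresh, ZRR) and Zingiberis Rhizoma (dried, ZR), Pinelliae Tuber, called PT, and the jujube Zizyphi Fructus, called ZF. The highest doses of SR and CR lie below 500 µg/mL, where the design sets the highest dose at the IC20. High, medium and low below mean these 3 doses of each extract. All groups share the single cell line, and nothing in the labels tells if a group's 3 libraries came from separate cultures, so p-values measure the spread between these libraries, which may be technical.

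Replication starts when the origin recognition complex, CDC6 and CDT1 load the MCM2 to MCM7 ring onto DNA in G1. MCM10, CDC45 and the GINS complex turn the loaded ring into an active helicase at the start of S phase. DNA polymerase alpha with primase then begins each strand, and the polymerases epsilon and delta extend it on the PCNA clamp, which the RFC complex loads. FEN1 and LIG1 trim and seal the Okazaki fragments. Ribonucleotide reductase (RRM1 and RRM2), thymidylate synthase (TYMS), thymidine kinase (TK1) and dUTPase (DUT) keep the deoxynucleotide pools supplied and free of dUTP. Many of these genes are transcribed at the G1 to S transition under E2F factors, and a proliferating line such as A549 expresses them throughout.

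Promoter sequences show what the genes share besides their roles. RefSeq promoter windows (GRCh38.p14, 250 bases before to 50 bases after each annotated start, 300 in all) were matched by symbol for 34 of the 38 genes, in 46 windows, since 8 of the genes have several starts. MCM4, MCM5, GINS4 and POLD3 had no entry. The windows were searched on both strands for 4 spellings of the E2F site, TTTCCCGC, TTTCGCGC, TTTGCCGC and TTTGGCGC. Of the 46 windows, 20 held at least 1 such word (43.5%), 1 in each of 20 genes, against 1164 of all 35116 promoter windows (3.31%). The CCAAT box, searched as CCAAT on both strands, was in 25 of the 46 windows (54.3%) and in 34.6% of all windows. On opposite strands the words TTTCGCGC and TTTGGCGC can overlap each other.

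Stretches of 6 promoters are printed 5′ to 3′ on the gene's strand, from 170 bases before the annotated start through the first 25 bases from it, 195 bases each. Capitals mark the E2F words. MCM2 (chr3:127598241-127598435, plus strand) is shown because its overlapping pair lies at the start, and MCM6 (chr2:135876419-135876613, minus strand) because it holds a pair at each of 2 places. CDC6 (chr17:40287709-40287903, plus strand), PCNA (chr20:5126598-5126792, minus strand) and E2F1 (chr20:33686361-33686555, minus strand) hold words at other distances. RRM2 (chr2:10122569-10122763, plus strand) is the gene with the largest fall described below and holds none of the 4 words in its window.
MCM2: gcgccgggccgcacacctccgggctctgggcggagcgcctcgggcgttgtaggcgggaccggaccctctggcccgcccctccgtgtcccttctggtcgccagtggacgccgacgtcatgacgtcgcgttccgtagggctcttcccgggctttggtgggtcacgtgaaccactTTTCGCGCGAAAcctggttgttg
MCM6: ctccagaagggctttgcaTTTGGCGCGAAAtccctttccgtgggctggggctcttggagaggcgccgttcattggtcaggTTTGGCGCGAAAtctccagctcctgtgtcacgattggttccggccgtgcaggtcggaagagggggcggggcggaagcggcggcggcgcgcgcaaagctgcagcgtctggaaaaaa
CDC6: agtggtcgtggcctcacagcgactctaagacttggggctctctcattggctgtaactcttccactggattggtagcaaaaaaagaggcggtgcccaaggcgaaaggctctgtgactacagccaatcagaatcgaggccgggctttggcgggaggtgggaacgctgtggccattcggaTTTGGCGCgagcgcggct
PCNA: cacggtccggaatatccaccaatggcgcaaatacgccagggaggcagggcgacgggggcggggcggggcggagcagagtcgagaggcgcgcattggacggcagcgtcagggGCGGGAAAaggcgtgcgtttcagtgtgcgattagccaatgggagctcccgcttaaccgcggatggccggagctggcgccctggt
E2F1: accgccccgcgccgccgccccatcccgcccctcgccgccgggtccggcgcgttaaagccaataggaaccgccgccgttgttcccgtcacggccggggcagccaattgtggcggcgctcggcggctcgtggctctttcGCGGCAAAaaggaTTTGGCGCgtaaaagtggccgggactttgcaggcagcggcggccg
RRM2: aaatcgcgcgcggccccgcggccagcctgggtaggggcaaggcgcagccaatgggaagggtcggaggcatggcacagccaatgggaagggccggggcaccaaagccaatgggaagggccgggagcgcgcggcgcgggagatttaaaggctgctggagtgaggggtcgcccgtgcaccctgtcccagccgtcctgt

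Levels are given in CPM, the count of a gene scaled to a fixed library total, after scaling for library composition. CPM of the cell type markers were scaled to the library total alone. Differences are given as log2 fold changes with their standard error (SE) from edgeR's quasi-likelihood fit. A gene is called higher or lower where the Benjamini-Hochberg adjusted p over all 17129 genes is under 0.05. Libraries held 17420373 to 36479629 estimated counts, and the smallest count of any of the 38 genes in a library was 268, for POLE2. Replicates of a group correlated at 0.982 or more. The keratins that mark epithelial cells were high in all libraries (KRT8 from 2036 to 4019 CPM and KRT18 from 1666 to 3055), EPCAM was at 3.67 to 7.44 CPM, and the blood marker PTPRC was at 0 in 51 of the 60 libraries. Libraries differed in how strongly CPM rose with transcript length, with slopes from 0.879 to 1.069 on a log2 scale.

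CR lowered nearly all of these genes, and more of them at each higher dose. SR lowered the MCM ring and a number of other genes at its highest dose and called none below it. With wortmannin 8 of the 38 genes were called, in both directions, and with each dose of the other 4 extracts at most 3. Against vehicle, CR at 130 µg/mL lowered 36 of the 38 genes and raised 0, where 16.7% of all genes tested were lower and 18.5% higher. At 26 µg/mL, 23 were lower and 0 higher, against 11.1% and 12.1% of all genes. At 5.2 µg/mL, 16 were lower and 2 higher, against 9.15% and 8.51%. The median log2 fold change of the 38 genes was -0.11 at the low, -0.21 at the medium and -0.48 at the high dose, and that of all genes was 0.01 at each dose.

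**Figure D1:**
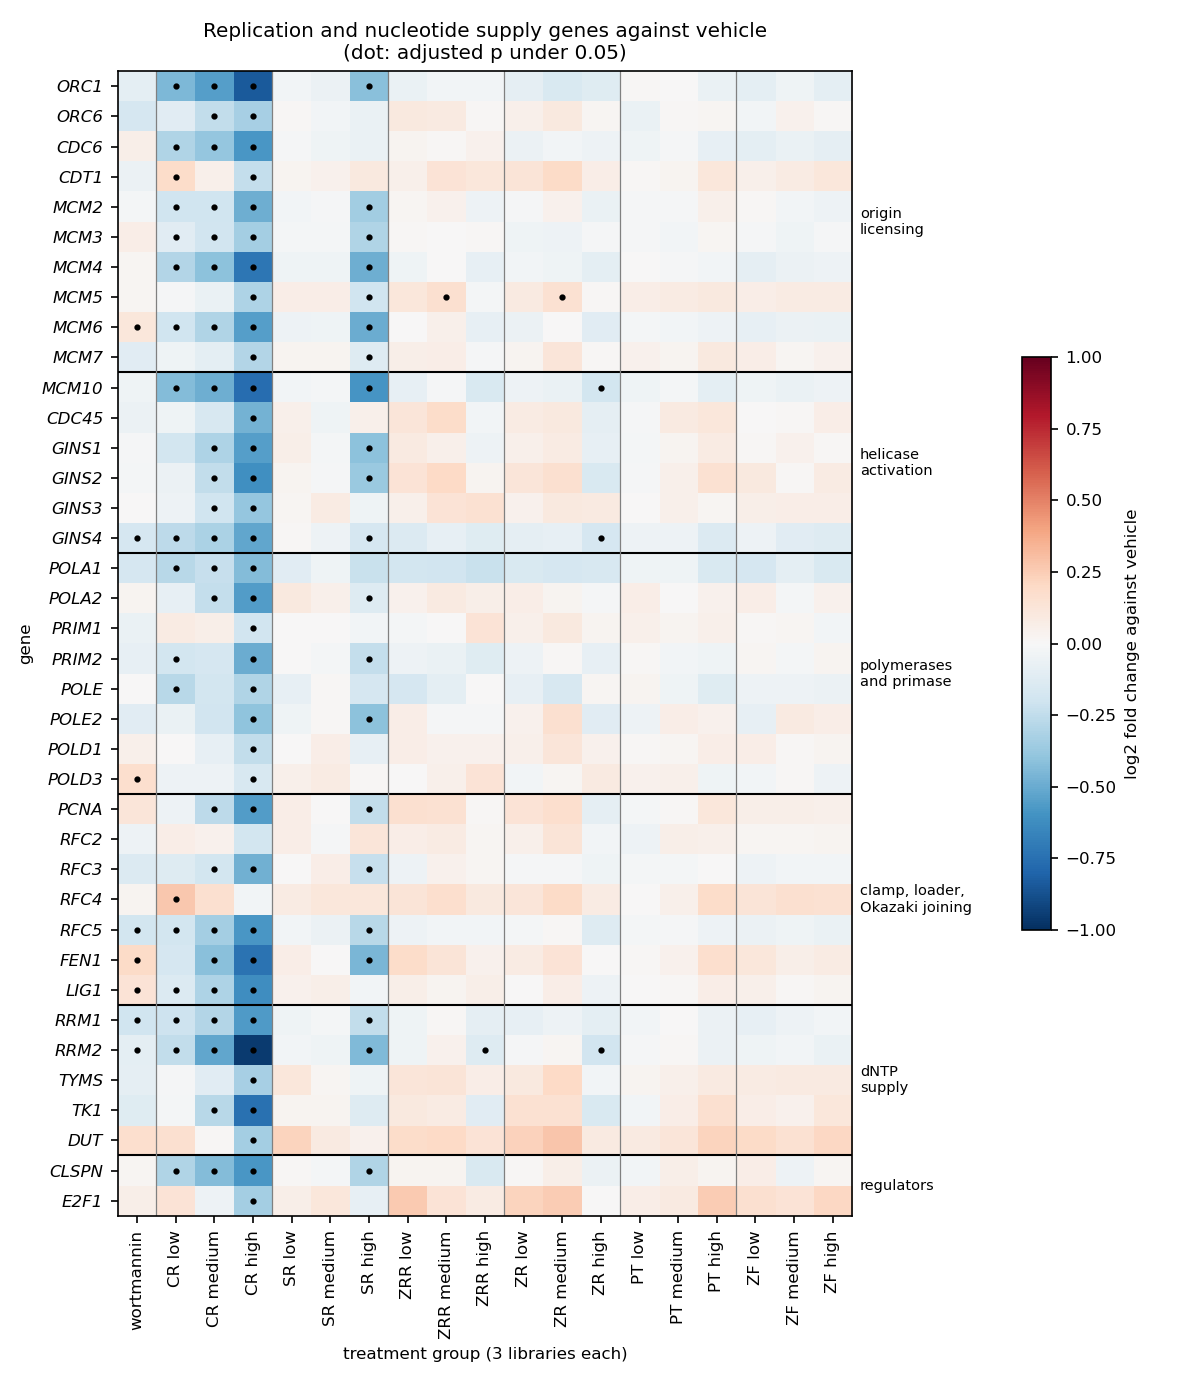
Log2 fold change against vehicle of each of the 38 genes (rows, grouped by role) in the 19 treatment groups (columns, 3 libraries each); blue is lower and red is higher, and a dot marks an adjusted p under 0.05. The CR columns darken from low to high dose, with 36 genes called lower at the high dose, and the SR column is dark only at the high dose, with 21 called lower.

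RRM2, the small subunit of ribonucleotide reductase that sets its S phase activity, fell furthest. Its level was 341, 332 and 329 CPM in the vehicle libraries, 275, 273 and 293 at 5.2 µg/mL, 227, 238 and 234 at 26 µg/mL and 170, 175 and 170 at 130 µg/mL. No library of any CR dose overlapped with those of the next dose or of vehicle. The log2 fold changes were -0.25 ± 0.03, -0.52 ± 0.03 and -0.96 ± 0.03 (SE, edgeR, adjusted p = 4.03e-07, 7.85e-17 and 2.34e-27). RRM1, the large subunit, stood at 184, 187 and 191 CPM in vehicle and at 121, 130 and 126 at the high dose, a change of -0.57 ± 0.04 (edgeR, adjusted p = 2.37e-16).

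The other deoxynucleotide supply genes, TK1, TYMS and DUT, were lower at the high dose and were not called at the low dose. TK1, which salvages thymidine, read 140, 135 and 148 CPM in vehicle, 130, 137 and 149 at the low, 123, 109 and 116 at the medium and 82.6, 83.6 and 85.5 at the high dose. Its change was -0.02 ± 0.09 at the low and -0.75 ± 0.09 at the high dose (edgeR, adjusted p = 0.903 and 9.24e-10), and the step from the medium to the high dose was -0.47. TYMS, which makes thymidylate, fell by 0.33 on the log2 scale at the high dose, and DUT, which clears dUTP, fell by 0.34. DUT was 0.16 ± 0.10 at the low dose and 0.01 ± 0.10 at the medium dose, neither called. TYMS overlaps an antisense neighbour, and no source used here says whether reads of the pair were told apart by strand.

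All 10 origin licensing genes were lower at the high CR dose, with log2 fold changes from -0.84 to -0.24. ORC1, the largest subunit of the origin recognition complex, read 43.7, 41.8 and 40.3 CPM in vehicle and 30.2, 32.6 and 28.8 at the low dose. At the medium dose it read 27.4, 30.1 and 28.2, which overlaps with the low dose. At the high dose ORC1 read 23.6, 22.9 and 23.6. It was thus already -0.45 ± 0.07 at 5.2 µg/mL, and reached -0.84 ± 0.07 at 130 µg/mL (edgeR, adjusted p = 1.66e-06 and 5.95e-15). CDC6, the loader of the MCM ring, read 116, 117 and 120 CPM in vehicle, 93.9, 98.1 and 94.7 at the low, 87.0, 93.8 and 88.1 at the medium and 74.1, 81.5 and 80.5 at the high dose. CDC6 fell at every dose, by 0.30, 0.39 and 0.58 on the log2 scale, and its libraries at each dose lay below all vehicle libraries.

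The 6 ring subunits changed by between -0.72 and -0.29 at the high dose. MCM4 read 278, 271 and 269 CPM in vehicle, 228, 227 and 217 at the low and 163, 165 and 171 at the high dose, a change of -0.72 ± 0.04 at the high dose (edgeR, adjusted p = 2.66e-20). MCM6 read 158, 161 and 154 CPM in vehicle and 109, 106 and 109 at the high dose, and MCM2 read 108, 110 and 108 against 79.9, 74.1 and 78.0. MCM6 changed by -0.55 ± 0.03 and MCM2 by -0.49 ± 0.04, and both were also lower at the low and medium doses. MCM3 fell by 0.34, MCM5 by 0.31 and MCM7 by 0.29 on the log2 scale at the high dose. MCM5 and MCM7 were not called at the low or medium dose, where MCM5 stood at -0.01 and -0.07 and MCM7 at -0.04 and -0.10. CDT1, the other ring loader, went from 38, 37.6 and 39.6 CPM in vehicle to 41.4, 44.3 and 44.8 at the low and 33.2, 30.2 and 34.2 at the high dose. It was higher at the low dose (0.18 ± 0.06, edgeR, adjusted p = 0.0278) and lower at the high dose (-0.24 ± 0.06, adjusted p = 0.0011). The low-dose call of CDT1 was lost with no filter on low counts, with only the libraries compared, with the length slope of each library as a covariate (0.09, adjusted p = 0.307) and without the first or second vehicle or the second or the third low-dose library. ORC6, a small subunit of the origin complex, was lower at the medium (-0.25) and high (-0.33) doses.

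All 6 helicase activation genes were lower at the high CR dose. MCM10, which helps the helicase begin to unwind DNA, read 75.7, 71.2 and 73.4 CPM in vehicle and 58.6, 54.0 and 50.8 at the low dose. At the medium dose it read 51.2, 56.6 and 49.4, and at the high dose 42.7, 43.3 and 44.4. Of these groups, MCM10 overlapped between the low and medium doses only. It changed by -0.43 ± 0.05 at the low dose, the smallest p of the 38 genes there, and by -0.76 ± 0.05 at the high dose (edgeR, adjusted p = 4.54e-08 and 1.46e-16). Of the GINS complex, which holds the helicase together with CDC45, GINS4 fell at all 3 doses (-0.26, -0.32 and -0.52). GINS1, GINS2 and GINS3 fell at the medium and high doses, to -0.55, -0.61 and -0.39 at the latter. CDC45 was lower at the high dose alone, at -0.47 ± 0.08.

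The polymerase and primase subunits moved least, with a median of -0.35 at the high dose, and all 8 were lower there. POLA2, a regulatory subunit of polymerase alpha, fell most, from 39.2, 38 and 39.7 CPM in vehicle to 25.6, 27.3 and 26.6 (-0.56 ± 0.05, edgeR, adjusted p = 7.19e-14). PRIM2, the large primase subunit, changed by -0.50 and its catalytic partner PRIM1 by -0.19. POLA1, the catalytic subunit of polymerase alpha, changed by -0.43, POLE2 by -0.40, POLE by -0.30, POLD1 by -0.25 and POLD3 by -0.16. POLE and PRIM2 were lower at the low dose too but were not called at the medium dose, at -0.18 (adjusted p = 0.158) and -0.17 (adjusted p = 0.0518) in edgeR.

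Of the clamp and Okazaki fragment genes, 5 of 7 were lower at the high CR dose. FEN1, the flap nuclease, read 111, 109 and 113 CPM in vehicle, 94.9, 87.0 and 115 at the low, 87.3, 80.3 and 81.6 at the medium and 65.2, 66.5 and 68.5 at the high dose (-0.74 ± 0.07, edgeR, adjusted p = 9.52e-12). Only the low dose overlapped with vehicle. LIG1, the ligase that seals nicks, read 71.4, 70.3 and 71.8 CPM in vehicle, 65, 63.5 and 64.8 at the low, 58.7, 56.4 and 57.0 at the medium and 45.6, 46.1 and 47.7 at the high dose, a separate band at each step. PCNA, the clamp, changed by -0.56, RFC5 by -0.58 and RFC3 by -0.48 at the high dose. RFC2 (-0.18 ± 0.08, edgeR, adjusted p = 0.0646) and RFC4 (-0.03 ± 0.09, adjusted p = 0.841), subunits of the same loader, were the 2 genes of the 38 not called. RFC4 was higher at the low dose (0.27 ± 0.09, edgeR, adjusted p = 0.0302), a call lost with the length slope as a covariate (0.07, adjusted p = 0.536) and without the first or second vehicle or the third low-dose library.

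Both regulators were lower at the high dose. CLSPN, the adaptor of the replication checkpoint, read 41.0, 43.6 and 41.6 CPM in vehicle, 34.6, 34.0 and 34.0 at the low, 33.0, 31.6 and 29.1 at the medium and 26.4, 30.1 and 27.6 at the high dose (-0.58 ± 0.06 at the last, edgeR, adjusted p = 2.34e-10). E2F1, an activator of S phase genes, read 42.7, 44.6 and 44.1 CPM in vehicle, 46.7, 47.7 and 50.7 at the low, 46.8, 39.0 and 40.9 at the medium and 35.7, 33.3 and 35.0 at the high dose. E2F1 was thus called at the high dose alone (-0.34 ± 0.08, edgeR, adjusted p = 0.000411), while 16 of the other genes were already lower at the low dose.

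**Figure D2:**
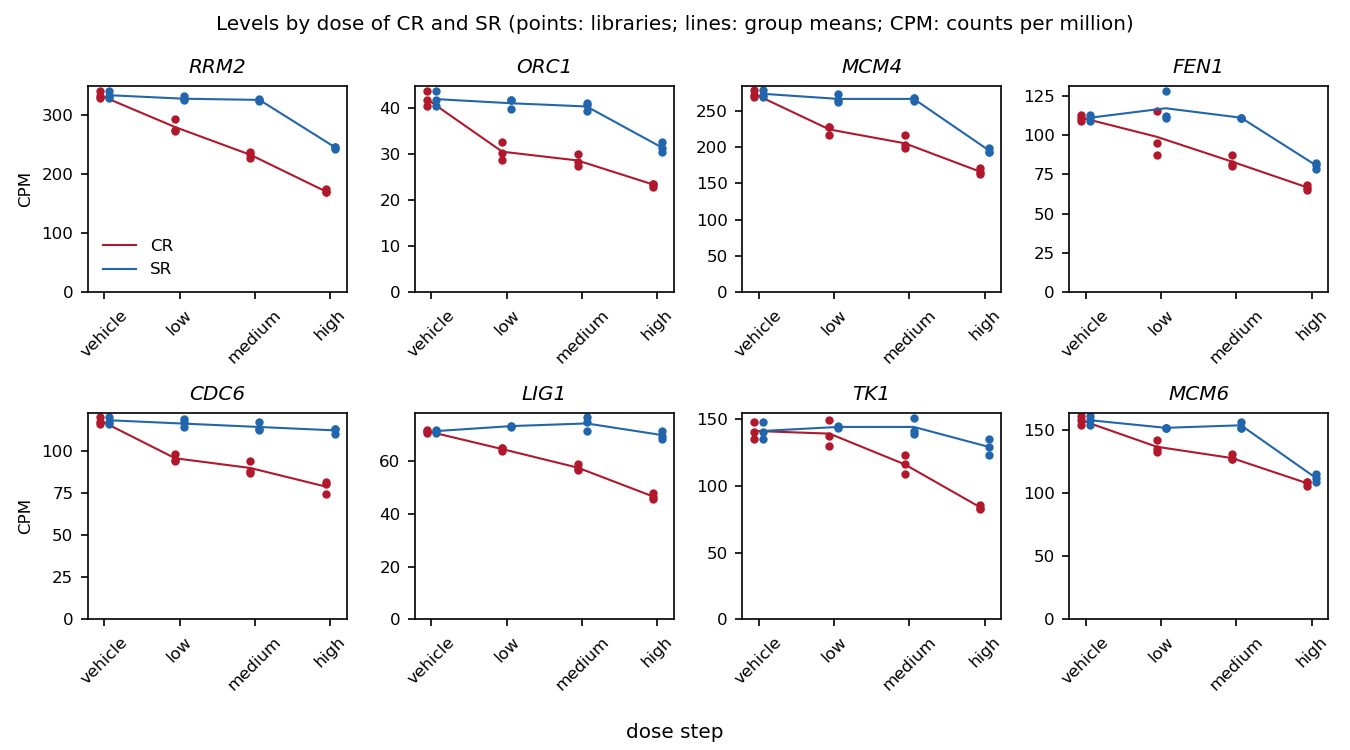
Levels in CPM (linear axis from 0) of 8 genes by dose step of CR (red) and SR (blue); points are libraries, 3 per group, lines join group means, and both extracts share the 3 vehicle libraries. RRM2 falls from 329 to 341 CPM in vehicle to 170 to 175 at the high CR dose, and CDC6 and LIG1 fall with CR and stay near vehicle with SR.

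For 29 of the 38 genes the group mean fell at every step from vehicle through the low and medium to the high CR dose, and for 35 it fell from low to medium to high. The high CR dose had the lowest mean of the 20 groups for 37 genes, and the high SR dose for the other, POLE2 (12.8 against 12.9 CPM). Falling and lowest means were not counted over all genes, so no background share stands beside these counts. All 16 genes lower at the low dose and all 23 lower at the medium dose were among the 36 lower at the high dose. These comparisons share the vehicle libraries, and with 36 of the 38 genes lower a large overlap was fixed in advance. Within CR alone, 35 genes were lower and 0 higher at high against low dose, with 12.3% of all genes lower and 13.1% higher. TK1 (-0.73), RRM2 (-0.71) and FEN1 (-0.57) had the largest differences between these doses. POLD3, POLA1 and POLE were not called, at -0.11, -0.15 and -0.02. From the medium to the high dose 30 genes were lower and 0 higher (3.94% and 3.59% of all genes). From the low to the medium dose 5 were lower and 0 higher (1.5% and 1.60%), namely RRM2, FEN1, LIG1, POLA2 and RFC5. With only the libraries compared 0 were called. The count came to 1 without the third CR medium library, to at most 4 whichever library was left out, and moved by more than 1.5 times without the second CR medium library or any 1 of the 3 CR low libraries.

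Sample codes of the vehicle and CR libraries differ in their leading number, which cannot be told apart from treatment in the comparison with vehicle. ZF libraries share the leading number of the CR libraries, so CR was also set against ZF at the matching dose step, though the doses in µg/mL differ. CR lowered 36 genes and raised 0 at the high step (16.6% and 17.4% of all genes), 25 and 0 at the medium step (8.44% and 8.79%) and 13 and 0 at the low step (2.44% and 2.67%). RRM2 stood at -0.89 at the high and -0.22 at the low step, MCM10 at -0.71 and -0.39, and ORC1 at -0.75 and -0.36. CDT1 and RFC4 were not called at the low step, at 0.13 each. The call counts at the low dose changed when single libraries were left out and when the transcript-length slope was a covariate. Without the first vehicle library 11 genes were called at the low dose in place of 18. The 3 low-dose libraries had length slopes of 0.907 to 0.975, below the 1.014 to 1.069 of vehicle, so slope and treatment cannot be told apart there. With the slope as a covariate, 22 genes were lower and 0 higher than vehicle, and 22 were lower than ZF in place of 13. The count against ZF at the low step was 7 with no filter on low counts and 2 with only the libraries compared. Shares of all genes called in these alternative runs are not given here.

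**Figure D3:**
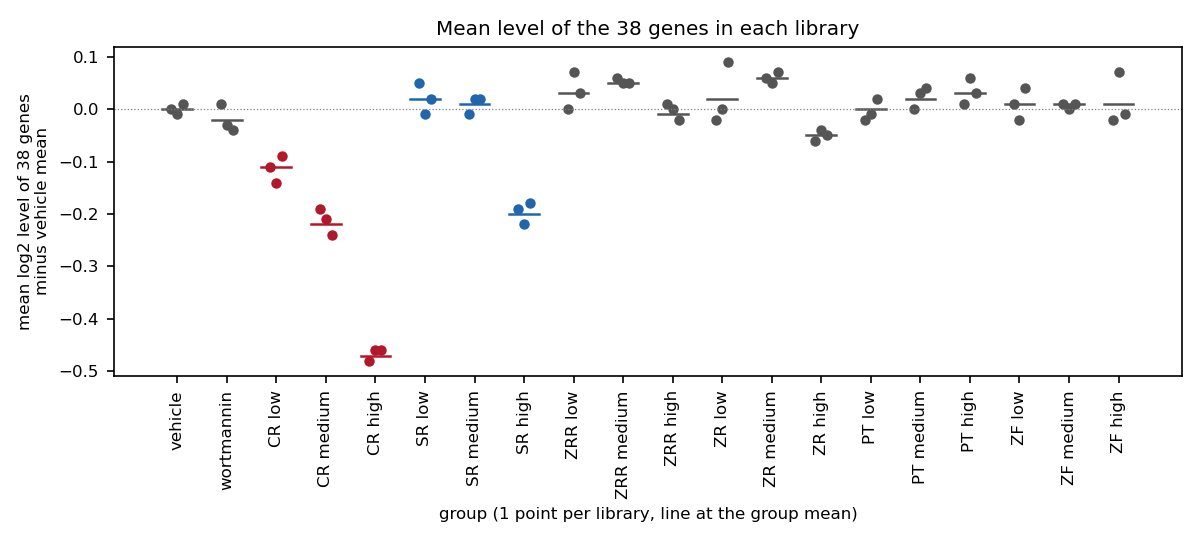
Mean log2 level of the 38 genes in each library relative to the vehicle mean, 1 point per library and a line at the group mean, for all 20 groups. The CR libraries lie at -0.14 to -0.09, -0.24 to -0.19 and -0.48 to -0.46 from low to high dose, the high SR libraries at -0.22 to -0.18, and all others between -0.06 and 0.09.

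SR at 230 µg/mL lowered 21 of the 38 genes and raised 0, where 10.9% of all genes were lower and 13.0% higher. The median of the 38 genes was -0.19 and that of all genes 0.01. MCM10, MCM6 and MCM4 had the largest changes. MCM10 read 48.1, 50.5 and 47.5 CPM, MCM6 115, 109 and 112, and MCM4 193, 193 and 199, each below all vehicle libraries. Their changes were -0.59 ± 0.05, -0.50 ± 0.03 and -0.49 ± 0.04 (edgeR, adjusted p = 1.49e-12, 1.43e-16 and 5.38e-14). MCM2 (-0.35), MCM3 (-0.30), MCM5 (-0.20), MCM7 (-0.13) and ORC1 (-0.42) were lower as well, so 7 of the 10 licensing genes fell. CDC6 (-0.07), CDT1 (0.10) and ORC6 (-0.07) were not called.

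The remaining roles were split under SR. Among the helicase activators GINS1 (-0.41), GINS2 (-0.37) and GINS4 (-0.17) fell along with MCM10, and GINS3 (-0.04) and CDC45 (0.05) were not called. RRM2 read 247, 243 and 247 CPM and changed by -0.44 ± 0.03 (edgeR, adjusted p = 1.25e-14), and RRM1 changed by -0.25. TK1 (-0.13), TYMS (-0.04) and DUT (0.04) were not called. FEN1 (-0.46), RFC5 (-0.28), PCNA (-0.25) and RFC3 (-0.23) fell, while LIG1 stayed at 68.4, 69.5 and 71.4 CPM (-0.03 ± 0.04, edgeR, adjusted p = 0.685). RFC2 and RFC4 were at 0.12 and 0.11. Of the polymerases POLE2 (-0.41), PRIM2 (-0.24) and POLA2 (-0.13) fell, and POLA1, POLE, POLD1, POLD3 and PRIM1 were not called, with values from -0.22 to 0.01. CLSPN fell (-0.30 ± 0.06) and E2F1 was not called (-0.08 ± 0.08).

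At the medium and low SR doses none of the 38 genes was called. At 46 µg/mL edgeR called 0 of the 38 and 0% of all genes, and DESeq2 called 0 of the 38 and 3 of all genes. An unadjusted p under 0.05 in edgeR was found for 0 of the 38 and 722 of all 17129 genes. At 9.2 µg/mL edgeR called 0 of the 38 and 0.00584% of all genes, and DESeq2 called 0 of the 38. Here 2 of the 38 and 903 of all 17129 genes had an unadjusted p under 0.05 in edgeR. RRM2 read 324, 326 and 327 CPM at 46 µg/mL, just under the vehicle libraries, and 243 to 247 at the next dose. Against the low dose, the high SR dose lowered 21 genes and raised 0 (9.36% and 11.1% of all genes), the same 21 as against vehicle. Against the medium dose it lowered 22 and raised 0 (9.42% and 11.0%), the addition being POLD1 at -0.15. PT libraries share the leading code number of SR, and against PT at its high dose SR lowered 23 and raised 0 (10.1% and 11.4%).

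The high doses of SR and CR were compared directly, although they differ in µg/mL. SR and CR libraries also differ in the leading number of the sample code, which cannot be told apart from the extract here. In this comparison 30 of the 38 genes were higher with SR than with CR and 0 lower, against 11.1% and 10.8% of all genes. The largest differences were in TK1 (0.62 ± 0.09), LIG1 (0.59 ± 0.04), RRM2 (0.52 ± 0.03), CDC45 (0.52 ± 0.08) and CDC6 (0.51 ± 0.04) (edgeR, adjusted p from 2.2e-15 for LIG1 and 6.51e-17 for RRM2 to 8.06e-07 for CDC45). All 5 deoxynucleotide supply genes were higher with SR. The 8 genes not called were MCM3 (0.04), MCM6 (0.05), POLE2 (-0.01), GINS1 (0.14), GINS2 (0.23), POLA1 (0.22), POLE (0.13) and RFC4 (0.14). MCM6 was at 109 to 115 CPM with SR and 106 to 109 with CR, ranges that touch, and MCM3 was at 101 to 103 against 98.3 to 99.4. High against low dose, which shares no libraries between the extracts, lowered 21 genes with SR and 35 with CR. All 21 were among the 35 (100% of the SR genes and 60% of the CR genes). With 35 of the 38 genes lowered by CR, a large overlap was fixed in advance. The overlap over all genes was not counted. The 14 lowered by CR alone in this comparison include CDC6, CDC45, LIG1, TK1, TYMS, DUT and E2F1.

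**Figure D4:**
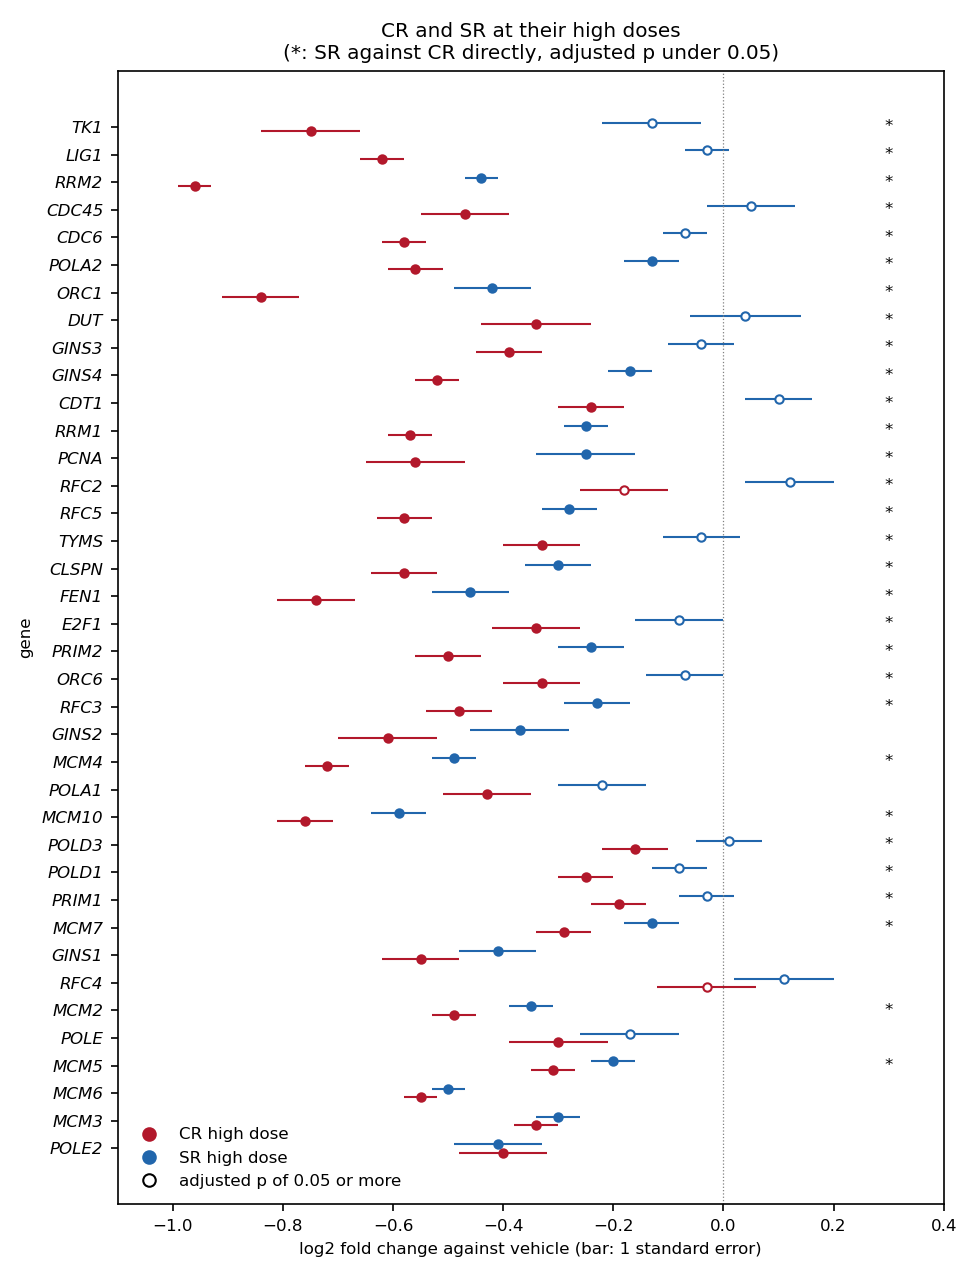
Log2 fold change against vehicle of each of the 38 genes at the high dose of CR (red) and SR (blue), with bars of 1 SE; open circles have an adjusted p of 0.05 or more, and a star marks the 30 genes that differ between the extracts directly. Genes are ordered by the difference, from TK1 at the top to POLE2 at the bottom, where the extracts lie together.

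Wortmannin lowered 4 of the 38 genes and raised 4, where 11.9% of all genes were lower and 13.4% higher, so the share called lies near the background. With the size factors of DESeq2 the split was 7 lower and 3 higher. RRM1 (-0.20 ± 0.04, edgeR, adjusted p = 0.000181), RFC5 (-0.18), GINS4 (-0.17) and RRM2 (-0.10) were lower. FEN1 (0.19), POLD3 (0.17), LIG1 (0.14) and MCM6 (0.11) were higher. LIG1 read 85.2, 77.4 and 73.4 CPM against 70.3 to 71.8 in vehicle, and RRM1 read 174, 161 and 155 against 184 to 191, without overlap. Without the third vehicle library 5 genes were called in place of 8, and with no filter on low counts 2 were called. With the length slope as a covariate 8 were lower and 6 higher. The shares of all genes called in these runs are not given here.

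With the gingers 1 to 3 of the 38 genes were called at the high dose, near the share of all genes called, and 1 each at the medium dose. ZRR at 500 µg/mL lowered RRM2 alone, at 306, 313 and 298 CPM (-0.13 ± 0.03, edgeR, adjusted p = 0.0197, 4.03% of all genes called). ZR at 500 µg/mL lowered RRM2, at 295, 286 and 295 CPM (-0.19 ± 0.03, edgeR, adjusted p = 8.89e-05), GINS4 (-0.17) and MCM10 (-0.18), with 5.35% of all genes called. With no filter on low counts 0 were called at 500 µg/mL with either ginger. At 100 µg/mL MCM5 alone was higher, at 137, 139 and 130 CPM with ZRR (0.16 ± 0.04, 0.280% of all genes called) and at 135, 134 and 135 with ZR (0.15 ± 0.04, 0.922% called), against 116 to 126 in vehicle. The ZRR call at 500 µg/mL went to 0 without the first or second vehicle library or the first or the third ZRR library. The ZRR call at 100 µg/mL went to 0 without any 1 vehicle library or the first or second ZRR library, and the ZR call at 100 µg/mL without the second or the third vehicle library or the first or the third ZR library. At 20 µg/mL edgeR called 0 of the 38 with either ginger (0.111% of all genes with ZRR and 0.00584% with ZR). DESeq2 also called 0 each, and 5 each passed an unadjusted p of 0.05. Of all 17129 genes, 3061 with ZRR and 1648 with ZR passed the same unadjusted p. High against low dose, edgeR called 0 with ZRR (4.17% of all genes), and 1 without the first low-dose or the third high-dose library. For ZRR 9 of the 38 and 2844 of all 17129 genes had an unadjusted p under 0.05. DESeq2 called 2 of the 38 lower with ZRR, and 366 of all genes lower and 458 higher. With ZR edgeR called RRM2 (-0.19) and TK1 (-0.30) lower (4.64% of all genes), and 1 gene without any 1 high-dose library or the third low-dose library.

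Fresh and dried ginger were compared at matched doses. At the high dose edgeR called 0 of 38 between them, with 4 at an unadjusted p under 0.05 and 0 by DESeq2 (0.712% of all genes), and the log2 differences ran from -0.09 to 0.18. At the medium and low doses it called 0 each, with 1 each at an unadjusted p under 0.05 and 0 each by DESeq2 (0.00584% and 0% of all genes). The test of whether the high against low difference itself differed between the gingers called 0, with 2 at an unadjusted p under 0.05 and 0 by DESeq2 (0.140% of all genes). PT and ZF gave 0 calls by edgeR at all doses. For PT the share of all genes called was 1.40%, 0.0175% and 0% from high to low dose. At an unadjusted p under 0.05 there were 8, 0 and 0 of the 38, and 3043, 705 and 557 of all 17129 genes. By DESeq2 the calls among the 38 were 1 lower, 0 and 0, with 120 of all genes lower and 222 higher at the high dose. Without the third library of the high PT dose edgeR called 1. For ZF the shares called by edgeR were 0.00584%, 0.0117% and 0.0117%, and DESeq2 called 0 of the 38 at each dose. With ZF 7, 2 and 5 of the 38 passed an unadjusted p of 0.05, and 1856, 1125 and 1888 of all genes. High against low dose gave 0 calls among the 38 by edgeR and DESeq2 for PT (0.549% of all genes by edgeR) and for ZF (0%). In this comparison 4 of the 38 and 1982 of all genes with PT had an unadjusted p under 0.05. With ZF it was 0 of the 38 and 397 of all genes.

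Single libraries outside the affected groups also moved some of the 38 genes together. The third ZR low-dose library, with the smallest length slope of the 60 (0.879), had the highest PCNA (388 CPM), TK1 (183 CPM), DUT (88.4 CPM) and CLSPN (48.9 CPM) of all libraries, while its fellows had PCNA at 296 and 292. The second ZF high-dose library (slope 0.888) had PCNA at 362 CPM against 280 and 278 in its fellows, and POLE at 102 against 133 and 134. The second ZRR low-dose library (slope 0.893) had PCNA at 367 against 300 and 322, and POLE at 104 against 122 and 117. The longest annotated transcript has 1359 bases for PCNA and 8011 bases for POLE. The part of transcript length in these differences was not tested library by library.

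Genes around the 38 were counted in lists of related functions. Of all genes tested, 16.7% were lower and 18.5% higher at the high CR dose. At the high CR dose 23 of 35 other replication genes were lower and 3 higher, with DNA2, a nuclease and helicase of Okazaki fragments, at -0.58 and RPA1, the large subunit of the single-strand binding protein, at -0.29. Of 10 genes of replication-coupled chromatin, 9 were lower, among them the histone chaperone ASF1B (-0.80) and UHRF1 (-0.42), which guides DNA methylation to new strands. Of 21 checkpoint and repair partners, 16 were lower and 1 higher, with the nuclease EXO1 at -0.93 and the mismatch repair gene MSH6 at -0.40. Of 18 genes of the E2F and RB family and S phase entry, 10 were lower and 3 higher, with cyclin CCNA2 at -0.74 and SKP2, which marks cell cycle inhibitors for degradation, at -0.68. Other nucleotide metabolism was split, with 9 of 28 lower and 9 higher. MTHFD2, a mitochondrial folate enzyme, rose by 1.04 on the log2 scale. Of 25 mitosis genes 24 were lower, with PLK1 at -0.70 and AURKA at -0.75. Of 7 cell cycle brakes tested, 3 were higher and 2 lower. CDKN1A at 0.84 and GADD45A at 1.27 had the smallest p of this list. Another of these brakes, CDKN2C, was lower at the high than at the low CR dose (-1.15). It was also lower than with ZF at its high dose (-1.45).

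With SR at its high dose 10.9% of all genes tested were lower and 13.0% higher. Of 35 other replication genes 9 were lower and 2 higher, of 10 chromatin genes 6 were lower and 0 higher, and of 21 checkpoint partners 8 were lower and 1 higher. Lower were also 9 of 18 genes of the E2F list and 20 of 25 mitosis genes, with 0 higher in each. Among those lower were DNA2 (-0.35), UHRF1 (-0.41), MSH6 (-0.38), SKP2 (-0.56), CDC25A (-0.53) and AURKA (-0.50). Other nucleotide metabolism had 7 of 28 lower and 4 higher, with MTHFD2 at 0.90 and CTPS1, which makes CTP, at 0.35. Of the 7 cell cycle brakes 4 were higher and 1 lower, and CDKN1A at 0.57 and GADD45A at 1.24 had the smallest p. Wortmannin lowered 23 of 25 mitosis genes (PLK1 and AURKA at -0.66 each) and 14 of 28 genes of other nucleotide metabolism, with MTHFD2 at -0.86 and SHMT2 at -0.62. It lowered 6 of 35 other replication genes and raised 2, with DBF4, which activates the CDC7 kinase at origins, at -0.46, where 11.9% of all genes were lower and 13.4% higher. Whether the lists differ from the 38 genes in their response was not tested.

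**Figure D5:**
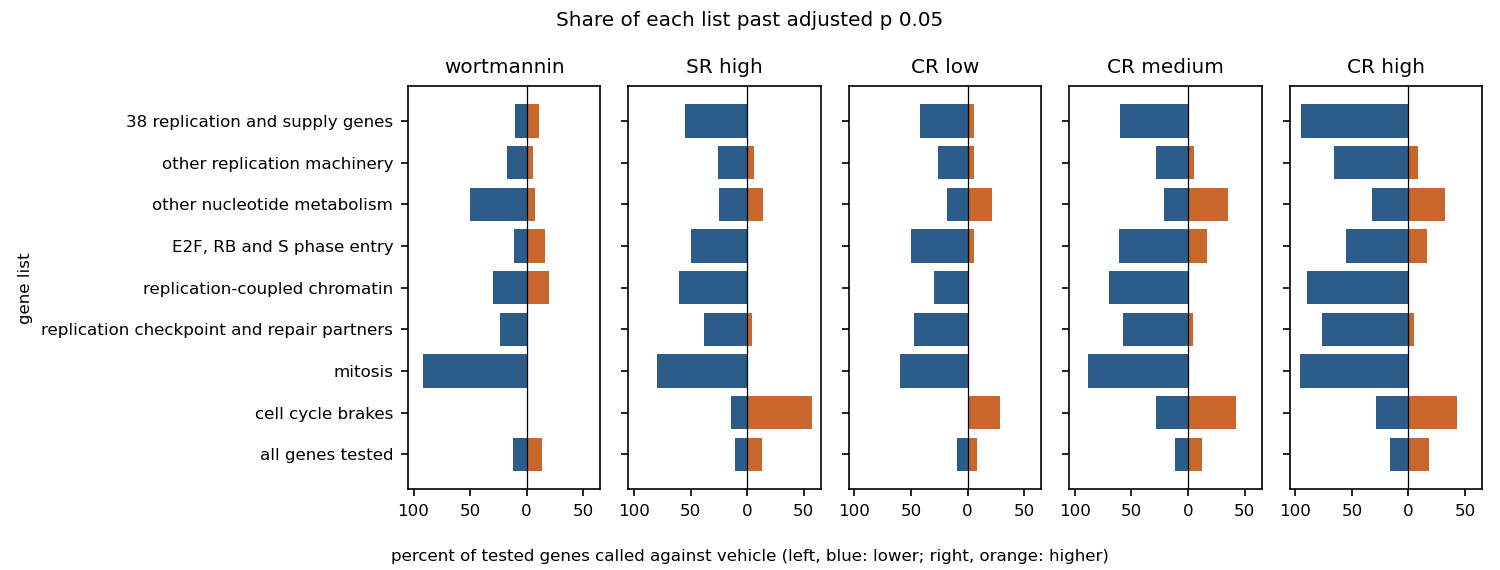
Percent of the tested genes of each list called lower (blue, left) or higher (orange, right) than vehicle in 5 treatments, with the 38 genes at the top and all genes tested at the bottom. With wortmannin 23 of 25 mitosis genes and 4 of the 38 genes were lower, and at the high CR dose 24 of 25 and 36 of 38.

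Genes called lower were found both among those with an E2F word and among those without. At the high CR dose, where 16.7% of all genes tested were lower, all 20 genes with an E2F word were lower. Their median was -0.45, with values from -0.62 to -0.24. Of the 14 matched genes without a word 12 were lower, with a median of -0.54 and values from -0.96 to -0.03. With SR at its high dose 11 of the 20 and 7 of the 14 were lower, with a median of -0.19 in both sets, where 10.9% of all genes were lower. All other genes with an E2F word were not counted by direction. The genes with the largest falls at the high CR dose, RRM2, ORC1, MCM10, TK1 and FEN1, held none of the 4 words, and RFC2 and RFC4, the genes not called, are also in the set without a word. A word is a match of letters in this window and not a measured binding site.

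Marker levels, in CPM scaled to the library total alone, moved with CR dose as well. The 5 epithelial markers summed to between 5851 and 5913 CPM in the vehicle libraries, to 4889 to 5620 at the low, 4463 to 4759 at the medium and 3779 to 3808 at the high CR dose, without overlap between groups. These sums are nearly all KRT8 and KRT18, since EPCAM, KRT19 and CDH1 reached at most 7.44, 38.8 and 37.7 CPM. With SR at its high dose the sum was 5696 to 6015 CPM, which overlaps with vehicle. The 5 blood markers together stood at 0.652 to 1.29 CPM at the high CR dose and 1.52 to 2.24 in vehicle, and the endothelial and fibroblast sums stayed at or below 1.38 CPM in vehicle, wortmannin, SR high and the CR groups. The part of these markers in the fall of the 38 genes was not tested, and in bulk RNA fewer cells in S phase and less RNA of these genes per cell cannot be told apart.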

How the data were processed

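A549 mRNA was made into directional libraries and sequenced as paired 100-base reads, per the labels' protocols. Values in the deposited table are estimated counts of Ensembl genes, which the authors did not normalise, as shown by totals that differ between libraries and by values that are not whole (9.059% of them). Tools listed in the submitters' processing notes are STAR 2.7.3a, RSEM 1.3.3, Trim Galore 0.6.5 and FastQC 0.11.9, with GRCh38 as build. Neither the annotation release nor the strand setting is stated in these sources. Of 269 columns, 60 carry labels of these samples, and 209 were not used. The labels give 0.1% DMSO and the design text another percentage.

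Counts were rounded and fitted with edgeR 4.0.16 (R 4.3.3; TMM, filterByExpr by group, robust quasi-likelihood fit with 1 term per group over all 60 libraries, 40 residual degrees of freedom). The SE is the absolute log2 fold change over the root of F. There were 37 comparisons, 8 of them added after seeing the data. The 38 genes, their roles and the 7 lists of other genes were chosen with earlier results of these data known. Named genes are, per comparison, up to 6 called genes of the 38 with the smallest p, up to 2 in the opposite direction and 1 per role, and 2 per other list, and further values of the 38 are given to account for each. A gene that this rule names in the other lists is not reported here. Alternatives were DESeq2 1.42.0, its size factors in edgeR, no filter on low counts, only the libraries compared, a replicate block, each library left out in turn and the transcript-length slope as covariate. The fit was tested on simulated data for the high CR dose against vehicle over 16942 genes, where 67% of the 100 genes changed 1.3-fold and 86% of the 100 changed 1.5-fold were recovered by edgeR, with 4 other genes called. No 2 libraries agreed within sampling noise (smallest chi-square per degree of freedom 2.2).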

Additional observations from a re-analysis of the deposited data

How the results depend on the processing

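Over 450 recomputed counts of called genes, from 37 comparisons, 395 stayed within 1.5 times the reported count and 55 did not. Counts of 0 that stayed at 0 are among the 395. Of the called fold changes of the 38 genes, 0 reversed in sign. Named genes of the other lists were not checked in this way. In this section shares of all genes called in the same runs are not set beside the counts. The counts at the high and medium CR doses and the high SR dose against vehicle stayed within that limit in every alternative run. The cause of the changes in the others was not tested. Where only the libraries compared were fitted, the number of libraries, the filter and the scaling changed together. With no filter on low counts the calls came to 2 for wortmannin against vehicle, 0 for ZRR and ZR high, 2 for PT high, 0 for ZRR medium, 3 for ZR medium, 1 for ZRR low, 1 for ZRR high against low and 7 for CR low against ZF low. With the length slope as covariate they came to 14 for wortmannin, 5 for ZRR high, 9 for ZR high, 0 for ZR medium, 3 for ZRR and 6 for ZR high against low, 10 for CR medium against low and 22 for CR low against ZF low. DESeq2 gave 5 for ZR high, 1 for PT high, 3 for ZR medium and 2 for ZRR high against low, and its size factors gave 0 for ZRR medium. With only the libraries compared, counts were 2 for ZRR high, 9 for ZRR medium, 7 for ZR medium, 0 for ZR high against low, 0 for CR medium against low and 2 for CR low against ZF low. On leaving out each library in turn, counts ran from 5 to 7 for wortmannin, 0 to 1 for ZRR high, PT high, ZRR medium, ZR medium and ZRR high against low, 1 to 3 for ZR high against low, 11 to 16 for CR low and 1 to 4 for CR medium against low.

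Same-numbered replicates did not deviate together (0 of 36 pairings checked had all correlations above 0.1). With the replicate block, CR low against vehicle came to 17 calls in place of 18 and CR low against ZF low to 12 in place of 13, and the high CR dose kept 36. Another scaling moved the median of all genes by at most 0.015 on the log2 scale. In the simulation above, changes of 1.3-fold and 1.5-fold were missed in part, and smaller ones were not simulated.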
